A study of Homo sapiens with 18 samples.

Results

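ZR-75-1 is an established luminal breast cancer cell line that carries the estrogen receptor. The comparison described here is that of the ADAR knockdown line with the control line (named SHC in the labels). The cells received neither drug nor vehicle. The comparison contrasts 6 of the 18 libraries of the series, 3 from each line, chosen by their sample titles. The other libraries come from the same lines given DMSO, the vehicle, or 100 nM triptolide, an inhibitor of RNA polymerase II. They enter the same fit, so the untreated calls also rest on them through the shared filter and estimate of spread. With the 6 untreated libraries alone, 63 genes were called. The line differences with DMSO and triptolide are used below to see how the genes found in untreated cells behaved there. Both lines were grown in medium with 10% serum and kept in 1% serum for 16 h before total RNA was extracted, so the untreated cells also spent that time in low serum. Libraries were made with a stranded total RNA kit and numbered as biological replicates 1 to 3. The labels name 1 control line and 1 knockdown line and do not describe the construct or the number of clones, so an effect of the knockdown and any other difference between the 2 lines cannot be told apart. In such bulk samples, fewer cells with a transcript and less of it per cell cannot be told apart either.

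ADAR encodes ADAR1, the enzyme that converts adenosine to inosine in double-stranded RNA. Much of that editing falls in inverted Alu repeats of introns and 3′ untranslated regions, and a smaller part recodes proteins. Edited duplexes are poorly recognised by the cytosolic sensor MDA5, and loss of ADAR1 is known to switch on interferon-stimulated genes in many cells. Protein kinase R and the OAS and RNase L pathway respond to the same kind of RNA. ADAR itself has an interferon-inducible promoter.

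The untreated libraries held 26.7e6 to 32.4e6 counts in genes, and mitochondrial ribosomal RNA took 24.2% to 35.8% of them. That share was 29.6% ± 4.76 (SD, n = 3) in control and 32.5% ± 2.82 (SD, n = 3) in knockdown cells. The difference lay within the spread of the groups (exact permutation test without pairing, two-sided, p = 0.60). The smallest p that 3 against 3 allows is 0.10. From control to knockdown, the share went from 24.2% to 31.1% in pair 1, 33.0% to 35.8% in pair 2 and 31.6% to 30.7% in pair 3. Knockdown replicate 1 lay farthest from the fitted values among the untreated libraries, with a residual SD of 0.209 on the log2 scale against 0.142 to 0.178 in the other 5, and counts without each library are given below. The 14 luminal epithelial markers of the list reached 1 count per 1e6 counts (CPM) in at least one library, and 0 of the 14 were called in either direction by edgeR or DESeq2 (3 had an unadjusted p under 0.05). Their summed level was 4696 to 6276 CPM in control and 4787 to 6715 CPM in knockdown libraries. The sums that follow leave out markers under the low-count filter. The 6 tested of 14 leukocyte markers summed to 4.79 to 9.14 CPM in control and 4.75 to 7.79 CPM in knockdown libraries. The 5 tested of 10 fibroblast markers summed to 10.5 to 14.5 and 10.3 to 22.8 CPM. The 3 tested of 6 matched endothelial markers summed to 1.58 to 4.0 and 1.32 to 4.12 CPM. CD3D, TYROBP and LUM had 0 counts in all 6 libraries. The 7 tested of 10 basal markers summed to 87.2 to 106 CPM in control and 111 to 116 CPM in knockdown libraries. Most of that came from CDH3 (P-cadherin), which was not called.

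The targeted gene was lower in each pair of libraries with the same number, but did not pass the test. ADAR (ENSG00000160710.15_2, chromosome 1, 154554171 to 154600489, hg19) stood at 476, 665 and 297 CPM in control replicates 1, 2 and 3 and at 352, 339 and 195 CPM in the knockdown replicates. The knockdown libraries thus held 74.0%, 51.0% and 65.7% of the level of their pair, while the ranges of the groups overlapped because control replicate 3 was low. The log2 difference was -0.67 ± 0.18 (SE), with an adjusted p of 0.137 in edgeR's quasi-likelihood test, here and below with Benjamini-Hochberg adjustment over 21285 genes and a call at 0.05. In the libraries with DMSO the difference was -0.65 ± 0.18 (adjusted p = 0.144), and with triptolide it was -1.42 ± 0.18 (adjusted p = 0.000192). In a fit of the 12 untreated and DMSO libraries, the untreated difference of -0.65 passed (adjusted p = 0.0281). The related editing enzyme ADARB1 stood at 5.11 to 7.23 CPM in control and 5.14 to 10.7 CPM in knockdown cells (log2 difference 0.14 ± 0.19, adjusted p = 0.996), and ADARB2 stayed below 0.5 CPM in each of the 6 libraries.

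Of the 21285 genes tested, 123 (0.578%) were called, 64 of them higher (0.301%) and 59 lower (0.277%) in knockdown cells, against a median difference over all genes of -0.01 on the log2 scale. Among the higher genes, 57 were protein coding, 4 long noncoding, 2 pseudogenes and 1 without annotation, and among the lower ones 53 were protein coding, 5 long noncoding and 1 a pseudogene. The change was at least 2-fold for 47 of the higher and 34 of the lower genes, and at least 4-fold for 22 and 18. The ranges of the groups did not overlap for 49 of the 64 and 48 of the 59. That share was not computed over all genes tested. The calls rest on the same values, so these counts describe the called genes only. In pairs of equal replicate number, 63 of the higher genes were higher in all 3 pairs, and the exception was IFI44. Without the replicate number in the fit, 21 genes were called, 6 higher and 15 lower, and 21 of 21 were among the 123. Leaving out single untreated libraries left 77 calls (without control replicate 3) to 111, and 28 higher and 29 lower genes were called in each of those 6 fits.

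**Figure D1:**
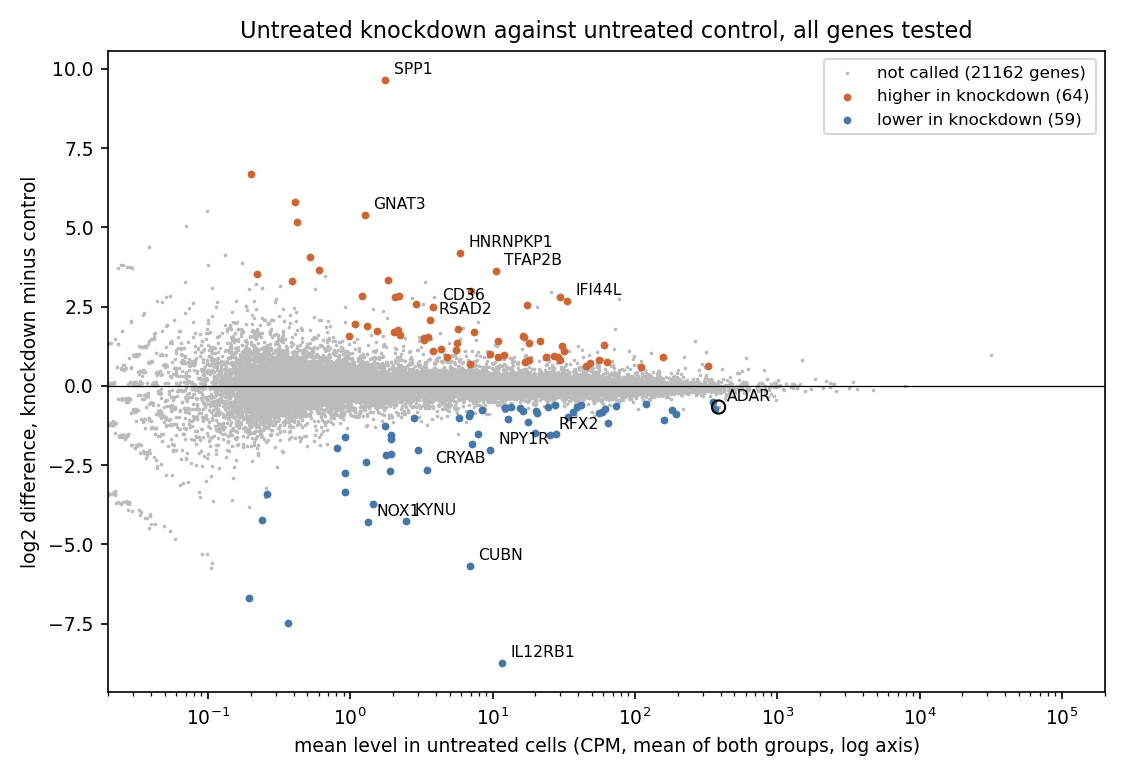
Log2 difference between untreated knockdown and control cells (vertical axis) against the mean level of both groups in CPM (log axis) for the genes tested. Grey points are the 21162 genes not called, orange points the 64 higher and blue points the 59 lower genes, and the open circle marks ADAR at -0.67. IL12RB1 lies lowest, at -8.75.

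Of the 15 higher and 15 lower genes with the largest differences, 13 were not called without the replicate number in the fit. They were SPP1 (adjusted p = 0.136), CASQ2 (0.0859), GUCY1A1 (0.129), SIRLNT (0.339), CYP1A2 (0.708), ENSG00000278272.1_1 (0.179), COL6A3 (0.0838), FAM171A1 (0.0527) and LGI1 (0.245), and NTN4, IFI44L, GLYATL3 and RSAD2 at 1. The values that follow are from the fit with the pairing. SPP1 (ENSG00000118785.13_2, chromosome 4, 88896819 to 88904684) encodes osteopontin, a secreted phosphoprotein of bone matrix that binds integrins. It had 0 counts in the 3 control libraries and 3.98, 6.37 and 0.239 CPM in the knockdown libraries (adjusted p = 2.18e-07). For the knockdown group as a whole it was at least 118-fold higher, taking a floor of 3 counts over the control group. That bound comes mostly from the libraries at 3.98 and 6.37 CPM and does not hold for each library. Knockdown replicate 3 lay far below the other knockdown libraries, and without it the gene was still called. In the fit of the 6 untreated libraries alone, SPP1 fell under the low-count filter. It was therefore tested only in fits that also held treated libraries. TFAP2B (ENSG00000008196.12_1, chromosome 6, 50786436 to 50815332), an AP-2 transcription factor, stood at 1.28, 2.49 and 1.05 CPM in control and 15.8, 23.9 and 18.7 CPM in knockdown libraries, with no overlap. Its log2 difference was 3.63 ± 0.30 (adjusted p = 2.99e-07). The AP-2 members TFAP2A (-0.11 ± 0.12), TFAP2C (-0.01 ± 0.14) and TFAP2E (-0.08 ± 0.29) were not called, at 30.9 to 43.3, 65.6 to 71.2 and 0.841 to 2.05 CPM over the 6 libraries, so 1 of 4 tested members was called.

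CD36 (chromosome 7, 79998891 to 80308593), which takes up long-chain fatty acids and oxidised lipoproteins, stood at 0.914, 1.18 and 1.3 CPM in control and 5.79, 8.80 and 5.02 CPM in knockdown libraries. Every knockdown library was above every control library, and the log2 difference was 2.50 ± 0.24 (adjusted p = 2.91e-06). Of the 27 tested genes for fatty acid uptake and storage, 1 was called, and the median difference of the list was 0.06. GNAT3, the taste G protein alpha subunit gustducin, lies inside CD36 on the opposite strand. Its levels were 0, 0.0336 and 0.111 CPM in control and 3.10, 3.70 and 0.658 CPM in knockdown libraries (log2 difference 5.39 ± 0.58, adjusted p = 1.53e-05), and 1 of 13 tested G protein alpha subunits was called. Whether the counting used strand is not stated, so reads of CD36 and GNAT3 may not be separable. HNRNPKP1, a processed pseudogene of the RNA-binding protein gene HNRNPK on chromosome 5, stood at 0.526 to 0.672 CPM in control and 5.14 to 15 CPM in knockdown libraries (4.18 ± 0.29, adjusted p = 3.36e-08), and is uncertain because it shares sequence with its parent gene.

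Among the other higher genes, CACNA2D1, an auxiliary subunit of voltage-gated calcium channels, went from 0.0277 to 0.168 CPM in control to 0.875 to 1.58 CPM in knockdown cells (3.64 ± 0.53, adjusted p = 0.000733). CASQ2, the calcium-binding calsequestrin of cardiac sarcoplasmic reticulum, stood at 0.209, 0.572 and 0.221 against 5.14, 2.89 and 2.06 CPM (3.35 ± 0.42, adjusted p = 0.000125). GUCY1A1, the alpha 1 subunit of the nitric oxide receptor guanylate cyclase, stood at 1.85, 2.49 and 0.443 against 8.89, 13.2 and 15.4 CPM (3.00 ± 0.46, adjusted p = 0.00117). The groups did not overlap for these 3 genes. The long noncoding RNA SIRLNT on chromosome 8 (2.82 ± 0.38, adjusted p = 0.000252) and GLYATL3, of the glycine N-acyltransferase family (2.58 ± 0.44, adjusted p = 0.00323), were separated in the same way. A feature listed as ENSG00000278272.1_1, with no symbol in the tables used, stood at 7.78, 5.48 and 2.16 CPM in control and 28.3, 35.4 and 25.9 CPM in knockdown libraries (2.56 ± 0.43, adjusted p = 0.00322). CYP1A2, a cytochrome P450 controlled by the aryl hydrocarbon receptor, and NTN4, the secreted netrin 4, were called with overlapping groups. CYP1A2 stood at 0.601, 0.135 and 0.664 CPM against 2.99, 0.317 and 8.58 CPM, and NTN4 at 0.470, 0.135 and 0.553 against 1.89, 0.211 and 9.06 CPM. In both, knockdown replicate 3 was the highest library and replicate 2 the lowest of its group. The call of CYP1A2 ended without control replicate 3 (adjusted p = 0.0737) or knockdown replicate 3 (0.0856), and that of NTN4 without the same libraries (0.277 and 0.178).

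Smaller changes at higher levels were also found. CXCL14, an epithelial chemokine, stood at 5.69, 11.2 and 8.69 CPM in control and 22.3, 22.1 and 29.5 CPM in knockdown libraries (1.54 ± 0.22, adjusted p = 0.00046). ITM2A, a type II membrane protein, stood at 2.32, 4.10 and 1.41 against 6.97, 12.1 and 7.35 CPM (1.81 ± 0.21, adjusted p = 5.05e-05). AZGP1, the secreted zinc alpha 2 glycoprotein, stood at 17.5, 22.4 and 13.9 against 47.7, 52.0 and 29.9 CPM (1.26 ± 0.17, adjusted p = 0.000202). SOX9, a transcription factor of epithelial progenitors, stood at 15.8, 14.9 and 25 against 28.5, 30.1 and 48.1 CPM (0.93 ± 0.14, adjusted p = 0.00132). For each of these 4 genes the lowest knockdown library was above the highest control library. These 4 were chosen after their values were seen.

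The gene furthest lowered was IL12RB1 (chromosome 19, 18169805 to 18209754), which encodes a receptor chain shared by interleukin 12 and interleukin 23. It stood at 27.8, 17.6 and 24.6 CPM in control and 0.113, 0.0352 and 0 CPM in knockdown libraries, a log2 difference of -8.75 ± 0.35 (adjusted p = 1.47e-12). Of the 11 tested genes of interleukin 12 and related receptors it was the 1 called, and the median of the list was -0.10. CUBN (chromosome 10, 16865965 to 17171810), which encodes cubilin, the endocytic receptor for vitamin B12 bound to intrinsic factor, stood at 5.56, 26.1 and 9.30 CPM in control and 0.141, 0.282 and 0.269 CPM in knockdown libraries (-5.69 ± 0.40, adjusted p = 3.60e-08). Control replicate 2 was high, yet the lowest control library was far above the highest knockdown library. Its partners AMN (0.93 ± 0.49, adjusted p = 0.77) and LRP2 (-0.83 ± 0.49, 0.83) were not called, and 1 of 11 tested members of that list was.

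NOX1 (chromosome X, 100098313 to 100129348), the catalytic subunit of a superoxide-producing NADPH oxidase, stood at 2.09, 3.23 and 2.30 CPM in control and 0.0565, 0.211 and 0.120 CPM in knockdown libraries (-4.30 ± 0.39, adjusted p = 1.08e-06). KYNU (chromosome 2, 143635226 to 143813402), the kynureninase of tryptophan breakdown, stood at 5.56, 6.52 and 2.10 against 0.310, 0.106 and 0.269 CPM (-4.26 ± 0.52, adjusted p = 9.01e-05). In both the groups were far apart. Of 11 tested genes of NADPH oxidases and 10 of the kynurenine pathway, 1 each was called. CRYAB (chromosome 11, 111779288 to 111794446), the small heat shock protein alpha B crystallin, stood at 7.23, 6.36 and 4.40 against 0.931, 0.669 and 1.2 CPM (-2.64 ± 0.32, adjusted p = 7.58e-05), and was the 1 that edgeR called of 7 tested small heat shock proteins (3 at an unadjusted p under 0.05), while DESeq2 also called HSPB8. SLC1A3, a glutamate transporter, stood at 1.23, 1.98 and 1.58 against 0.169, 0.387 and 0.179 CPM (-2.74 ± 0.31, adjusted p = 2.68e-05). COL6A3, a chain of type VI collagen, stood at 1.72, 1.98 and 2.77 against 0.480, 0.493 and 0.269 CPM (-2.41 ± 0.42, adjusted p = 0.00409).

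NPY1R (chromosome 4, 164245114 to 164265984), a neuropeptide Y receptor whose gene is induced by estrogen, had close values within each group. It stood at 15.2, 15.8 and 15.4 CPM in control and 3.47, 3.24 and 4.69 CPM in knockdown libraries, a log2 difference of -2.02 ± 0.18 (adjusted p = 1.08e-06). Its neighbour NPY5R, on the other strand, stood at 0.574, 1.11 and 0.692 against 0.282, 0.176 and 0.149 CPM and was not called (-1.91 ± 0.47, adjusted p = 0.081). Of 39 tested estrogen receptor target genes, 0 were higher and 2 were lower, NPY1R and RAB31, and the median of the list was -0.01. At an unadjusted p under 0.05 there were 15 of the 39, beside 1518 of all 21285 genes, and DESeq2 called 5 (TFF1, NPY1R, SERPINA1, HSPB8 and RAB31). RAB31 lies on 18p, and its call ended without any one library of replicates 2 or 3 (adjusted p = 0.124 to 0.178). ESR1, the receptor itself, stood at 46.6 to 51.7 CPM in control and 54.5 to 65.8 CPM in knockdown libraries (0.26 ± 0.12, adjusted p = 0.64). None of 18 luminal transcription factors was called by edgeR (4 at an unadjusted p under 0.05). KLF5 came nearest (0.88 ± 0.21, adjusted p = 0.0573) and was the 1 that DESeq2 called. RFX2 (chromosome 19, 5993175 to 6199583), a regulator of ciliary genes, fell from 41.5, 34.7 and 37.8 to 13.6, 13.9 and 11.4 CPM (-1.55 ± 0.15, adjusted p = 3.62e-06). The other 11 tested genes of the RFX and motile cilium list were not called, and the list's median was -0.30.

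The remaining lower genes of the 15 were SLCO4C1, an organic anion transporter (-3.36 ± 0.52, adjusted p = 0.00123), the membrane protein gene FAM171A1 (-2.14 ± 0.28, adjusted p = 0.000171), NDUFV2, LGI1 and 3 transcripts without a protein. LGI1, a secreted neuronal protein, stood at 1.11 to 1.58 CPM in control and 0.269 to 0.367 CPM in knockdown cells (-1.94 ± 0.42, adjusted p = 0.0304), and its call ended without any one of the 6 libraries (adjusted p = 0.0562 to 0.174). The 3 transcripts were the long noncoding RNA ENSG00000228809 (-3.73 ± 0.36, adjusted p = 2.74e-06), the pseudogene PGAM1P8 (-2.69 ± 0.40, adjusted p = 0.000982) and CAPN1-AS1 (-2.18 ± 0.34, adjusted p = 0.00159). PGAM1P8 and CAPN1-AS1 lie beside SPDYC on chromosome 11, between 64937704 and 64949305, and the 3 were called lower together. SPDYC had 0.392, 0.303 and 0.470 CPM in control and 0 counts in the 3 knockdown libraries, at least 12.8-fold lower by the same floor, and its call ended without knockdown replicate 1 (adjusted p = 0.0756) or 3 (0.0553). PCDH11X, a protocadherin of the X chromosome, had 0.836, 0.975 and 0.387 CPM in control and 0 counts in the 3 knockdown libraries, at least 23.3-fold lower. IL12RB1, CAPN1-AS1, ENSG00000228809, CRYAB, NPY1R and NDUFV2 each overlap a tested gene on the other strand.

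**Figure D2:**
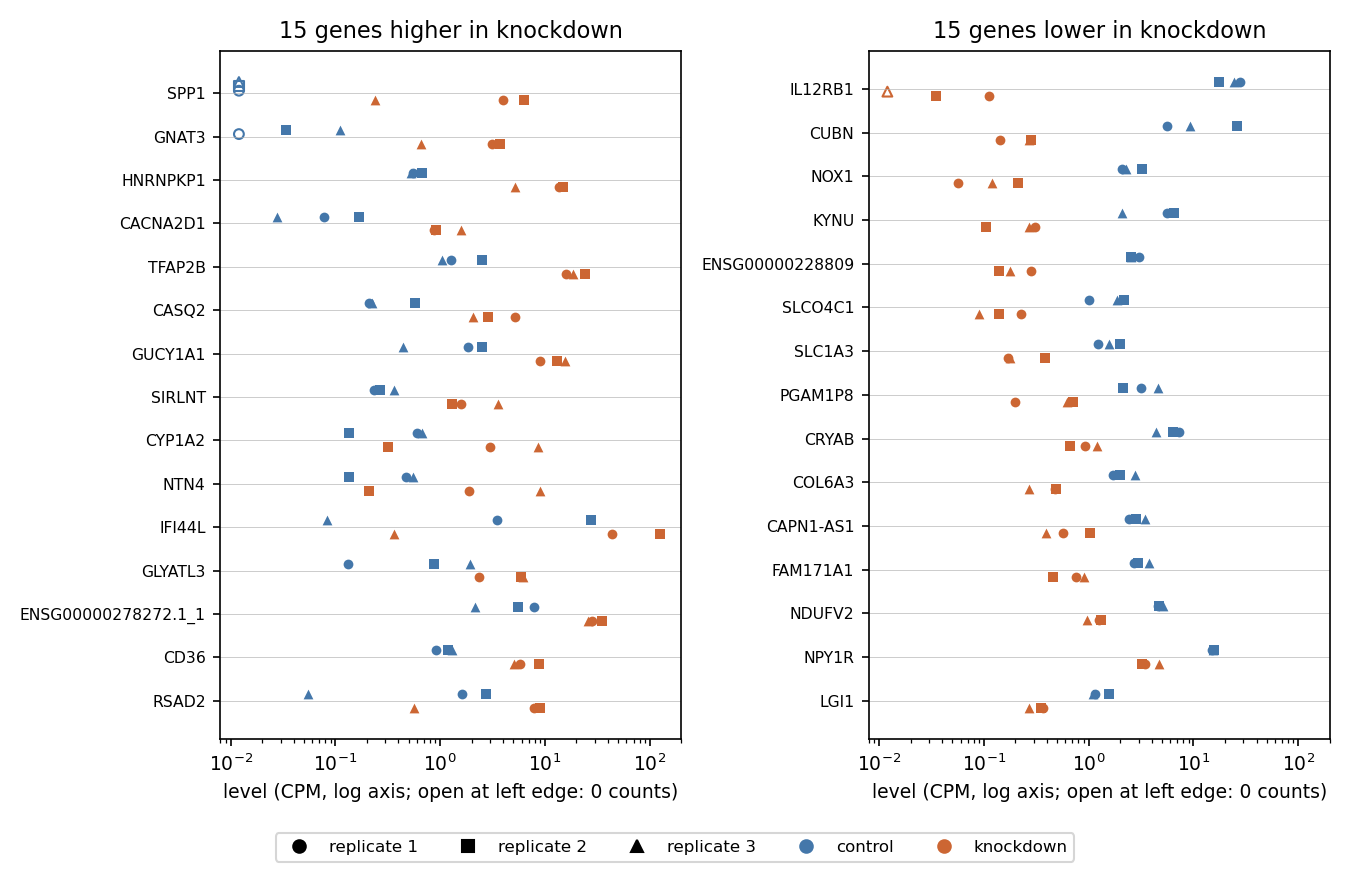
Level in CPM (log axis) of the 15 higher and 15 lower genes with the largest differences in each untreated library, by the rule given under processing. Blue marks control and orange knockdown libraries, the shape marks the replicate number, and open marks at the left edge stand for 0 counts. In CYP1A2, NTN4, IFI44L and RSAD2 the groups overlap while each pair of equal shape moves to higher levels.

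Of 53 tested interferon-stimulated genes, 3 were called higher, IFI44L, IFI44 and RSAD2, and 0 lower. Over all genes 0.301% were called higher and 0.277% lower. At an unadjusted p under 0.05 in edgeR there were 12 of the 53, beside 1518 of all 21285 genes. DESeq2 called 1 of the 53, RSAD2. Both replicate 3 libraries held far lower levels of these genes than the libraries of replicates 1 and 2, in control and knockdown cells alike. IFI44L (chromosome 1, 79085587 to 79111830), of unsettled biochemical function, stood at 3.50, 27.5 and 0.0830 CPM in control and 43.6, 126 and 0.359 CPM in knockdown libraries (2.67 ± 0.40, adjusted p = 0.00101). Its neighbour IFI44 (chromosome 1, 79115481 to 79129763) stood at 3.63, 14.5 and 0.636 against 57.4, 101 and 0.598 CPM (2.79 ± 0.55, adjusted p = 0.0140), so that pairs 1 and 2 were higher and pair 3 was not. RSAD2 (chromosome 2, 7005688 to 7038370), the antiviral enzyme viperin, stood at 1.62, 2.76 and 0.0553 against 7.90, 8.95 and 0.568 CPM (2.07 ± 0.32, adjusted p = 0.00142). Control and knockdown ranges overlapped in all 3 genes. RSAD2 overlaps CMPK2 on the other strand. Without the replicate number in the fit the adjusted p was 1 for each, and in DESeq2 it was 0.114 for IFI44L and 0.160 for IFI44. The call of IFI44 also ended without any one library of replicates 1 or 2 (adjusted p = 0.0547 to 0.169). With both libraries of replicate 1 left out, the calls of IFI44L (adjusted p = 0.0585), RSAD2 (0.132) and IFI44 (0.284) ended, and that of IFI44 also ended without replicate 2 (0.202).

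The interferon-stimulated list as a whole lay above 0, with 43 of 53 tested members positive and a median log2 difference of 0.24, beside -0.01 over all genes. On the log2(CPM + 1) scale, the median within pairs was 0.37 in pair 1, 0.04 in pair 2 and 0.13 in pair 3. The summed level of the 53 tested members was 2687, 3271 and 648 CPM in control replicates 1, 2 and 3. It was 3138, 3852 and 743 CPM in the knockdown libraries. Most strongly expressed members did not pass. The members with the smallest p were the 3 called genes and XAF1, so IFIT1, MX1 and ISG15 are named outside that order. IFIT1, which binds uncapped viral RNA, stood at 75.2, 251 and 1.11 against 197, 245 and 8.04 CPM (1.04 ± 0.45, adjusted p = 0.61). MX1, a dynamin-like antiviral GTPase, stood at 197, 301 and 15.8 against 308, 354 and 26.3 CPM (0.52 ± 0.19, 0.42). ISG15, the ubiquitin-like modifier, stood at 50.5, 13.7 and 0.166 against 23.7, 23.7 and 1.26 CPM, lower in pair 1 and higher in the other two pairs (0.26 ± 0.48, adjusted p near 1).

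**Figure D3:**
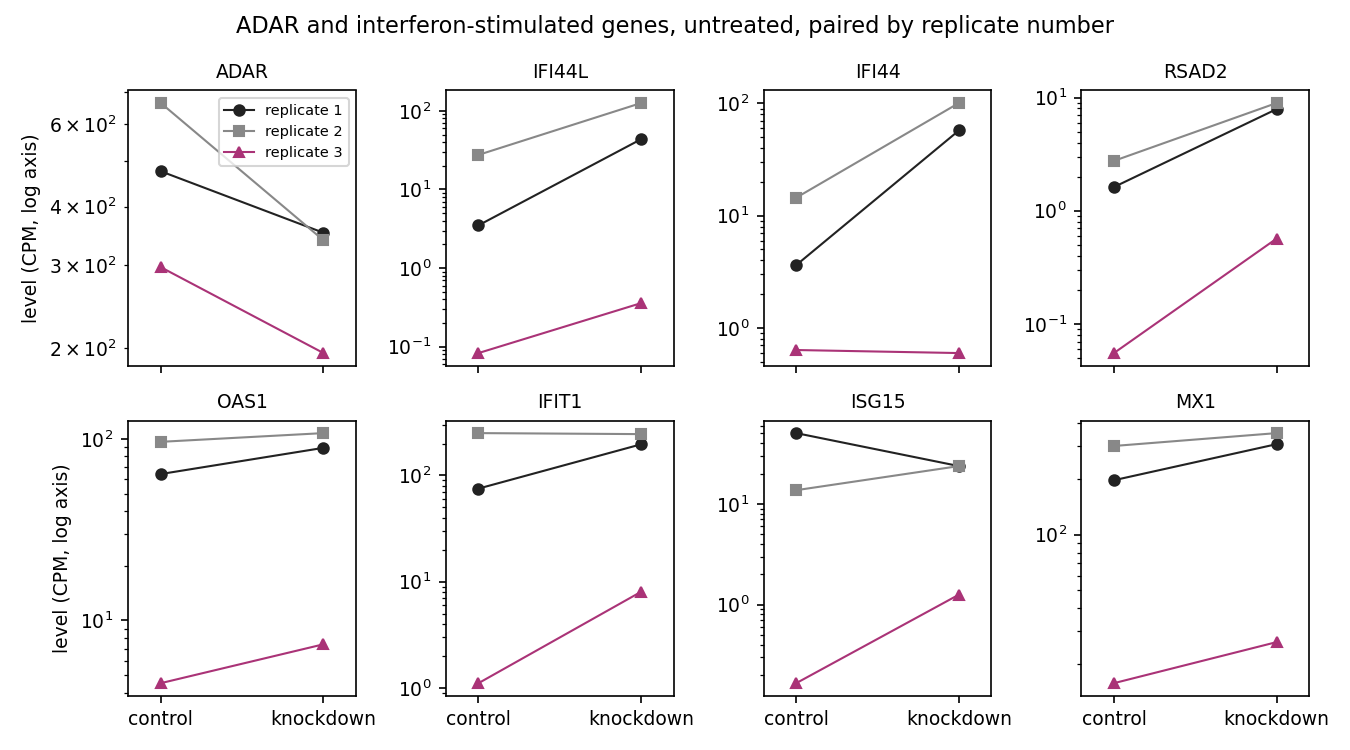
Levels in CPM (log axes) of ADAR and 7 interferon-stimulated genes in untreated control and knockdown libraries, with lines joining libraries of the same replicate number. Replicate 3 lies lowest in every panel, IFI44 is at 0.636 and 0.598 CPM in that pair, and ADAR slopes down in all 3 pairs.

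The sequences before the starts of the 3 called interferon-stimulated genes are shown because such promoters are known to carry the interferon-stimulated response element, which the ISGF3 complex binds. They are RefSeq sequences on GRCh38.p14, 5′ to 3′ on the strand of the gene, taken from windows of 250 bases before to 50 after a RefSeq start. Capitals mark matches to GAAANNGAAA on either strand, whose reverse complement is TTTCNNTTTC.
RSAD2, chr2:6877607-6877666, plus strand: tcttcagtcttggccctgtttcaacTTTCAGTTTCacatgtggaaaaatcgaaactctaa
IFI44L, chr1:78620259-78620409, plus strand: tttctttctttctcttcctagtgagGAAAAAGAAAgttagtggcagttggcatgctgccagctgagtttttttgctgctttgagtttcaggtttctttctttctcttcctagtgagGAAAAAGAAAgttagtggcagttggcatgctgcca
IFI44, chr1:78649746-78649805, plus strand: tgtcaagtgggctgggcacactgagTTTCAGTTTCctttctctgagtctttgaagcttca
IFI44L holds 2 matches inside a repeated stretch. The motif was in the window of 33 of 44 interferon-stimulated genes with one (75%), of 499 of 13044 tested genes (3.83%), and in 3.57% of 35116 windows. It was in 4 of the 47 higher genes with a window (8.51%), the 3 above and TENM1, and in 1 of 46 lower genes (2.17%), HEPH. A match describes these letters only. RSAD2 has a second RefSeq start whose window holds none.

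The cellular partners of ADAR1 and its known targets held no called genes. Among the 17 tested double-stranded RNA sensors and their signalling genes, 0 were called in either direction, with a median difference of 0.26 and 14 positive. OASL stood at 13.7, 16.9 and 0.443 CPM in control and 26.2, 20.0 and 2.63 CPM in knockdown libraries (0.89 ± 0.38, adjusted p = 0.58), and OAS2 at 81.0, 185 and 1.13 against 182, 207 and 3.29 CPM (0.77 ± 0.35, 0.67). OAS2 makes the oligoadenylates that activate RNase L, and OASL is a related protein without that activity. IFIH1, which encodes MDA5, stood at 36.0, 91.7 and 14.9 against 47.4, 87.8 and 16.4 CPM (0.14 ± 0.19), and EIF2AK2, which encodes protein kinase R, at 103, 237 and 68.8 against 173, 205 and 74.2 CPM (0.22 ± 0.19). Of 13 tested interferons and their receptors, 21 MHC class I genes, 16 MHC class II genes and 21 NF-kB targets, 0 were called, with medians of 0.14, 0.03, 0.03 and 0.13. At an unadjusted p under 0.05 in edgeR there were 2 of 17 sensors, 3 of 13 interferons and receptors and 5 of 21 MHC class I genes. The counts were 0 of 16 MHC class II and 1 of 21 NF-kB genes, beside 1518 of all 21285 genes. DESeq2 called 0 in these lists.

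Transcripts that ADAR enzymes recode showed no called change in level: 0 of 19 tested were called and the median was 0.04. The 4 members with the smallest p, each with an unadjusted p under 0.05 in edgeR, were GRIK1, PODXL, FLNA and SON. AZIN1 and COPA, which are not among them, were chosen outside that order and do not stand for the list. AZIN1, an antizyme inhibitor of polyamine control, stood at 225, 238 and 225 against 192, 219 and 255 CPM. COPA, a coatomer subunit, stood at 189, 245 and 191 against 198, 211 and 192 CPM. Of 23 tested messengers with edited inverted Alu repeats in the 3′ untranslated region, 0 were called (median -0.03), and 0 of 16 double-stranded RNA binding partners (median -0.00). In edgeR 4 of 19, 1 of 23 and 0 of 16 genes of these 3 lists had an unadjusted p under 0.05, beside 1518 of all 21285 genes. DESeq2 called 0 in the 3 lists. The counts give transcript levels and hold no measure of editing. ATF4 targets, induced when protein kinase R or related kinases phosphorylate eIF2 alpha, had 0 of 38 called by edgeR (4 at an unadjusted p under 0.05) or DESeq2, 34 negative, and a median of -0.20. On the log2(CPM + 1) scale, the median within pairs was -0.10, -0.35 and -0.06, so pair 2 differed most. TRIB3, a feedback inhibitor of that response, stood at 61.3, 75.5 and 46.1 against 35.8, 53.5 and 42.8 CPM (-0.47 ± 0.16, adjusted p = 0.32).

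None of 30 p53 targets or 29 S phase genes was called by edgeR (2 and 0 at an unadjusted p under 0.05) or DESeq2 (medians -0.03 and -0.03), and of 30 G2 and mitosis genes NDC80, a kinetochore subunit on 18p, was called lower. MKI67, the proliferation marker, stood at 138, 158 and 226 CPM in control and 342, 139 and 184 CPM in knockdown libraries (0.42 ± 0.27, adjusted p = 0.87), high in knockdown replicate 1 alone. The mucin gene MUC1 (9.61, 7.57 and 5.26 against 39.0, 5.95 and 4.75 CPM) and the splicing factor gene SON (74.0, 74.2 and 91.9 against 225, 70.2 and 91.3 CPM) were also high in that library alone, and neither was called. None of 14 tested basal and mesenchymal genes was called by edgeR or DESeq2 (median 0.19). In edgeR 4 of the 14 had an unadjusted p under 0.05, beside 1518 of all 21285 genes.

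The lower genes clustered on the short arm of chromosome 18. Of 94 tested genes on 18p, 18 were called lower (19.1%) and 0 higher, beside 0.277% lower over all genes, and the median difference of the arm was -0.57 with 79 genes negative. Of the 36 genes with a control mean of at least 10 CPM, 35 were negative (median -0.56). The median was -0.52 with DMSO and -0.55 with triptolide. The arm with the next lowest median was 5p (-0.29, 145 of 181 negative, 2 called lower). The medians of the other arms lay between -0.09 (4q) and 0.09 (17p). On 7q, 8 of 642 tested genes were called higher (1.25%) with an arm median of 0.00.

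The called genes of 18p lay in 3 runs, THOC1 to TGIF1 (11 genes, 214520 to 3459976), LINC00667 and EPB41L3 (5237825 to 5630699), and RAB12 to VAPA (5 genes, 8609435 to 9960018). The 65 tested genes up to VAPA had a median of -0.70 and the 29 beyond it, of which 0 were called, a median of -0.30 with 24 negative. The division at VAPA was chosen after the calls were seen. RAB12, a small GTPase of endosomes, stood at 28.4, 47.8 and 48.0 CPM in control and 10.8, 15.6 and 16.1 CPM in knockdown libraries (-1.52 ± 0.13, adjusted p = 7.97e-07). YES1, a kinase of the SRC family, stood at 192, 292 and 276 against 105, 149 and 152 CPM (-0.90 ± 0.12, adjusted p = 0.000219). NDUFV2, a subunit of respiratory complex I, stood at 4.57, 4.67 and 5.12 against 1.24, 1.3 and 0.957 CPM (-2.03 ± 0.30, adjusted p = 0.000733), and edgeR called none of the other 36 tested complex I genes, of which DESeq2 called NDUFS6. In 17 of the 18 genes the groups did not overlap, which describes the values that the calls already used. Leaving out single untreated libraries left 11 (without knockdown replicate 3) to 15 of the 18 called. Without replicate number 1, 2 or 3, in that order, 9, 8 and 7 were still called lower. The 2 fits without a replicate block or with the 6 untreated libraries alone left 2 and 8.

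**Figure D4:**
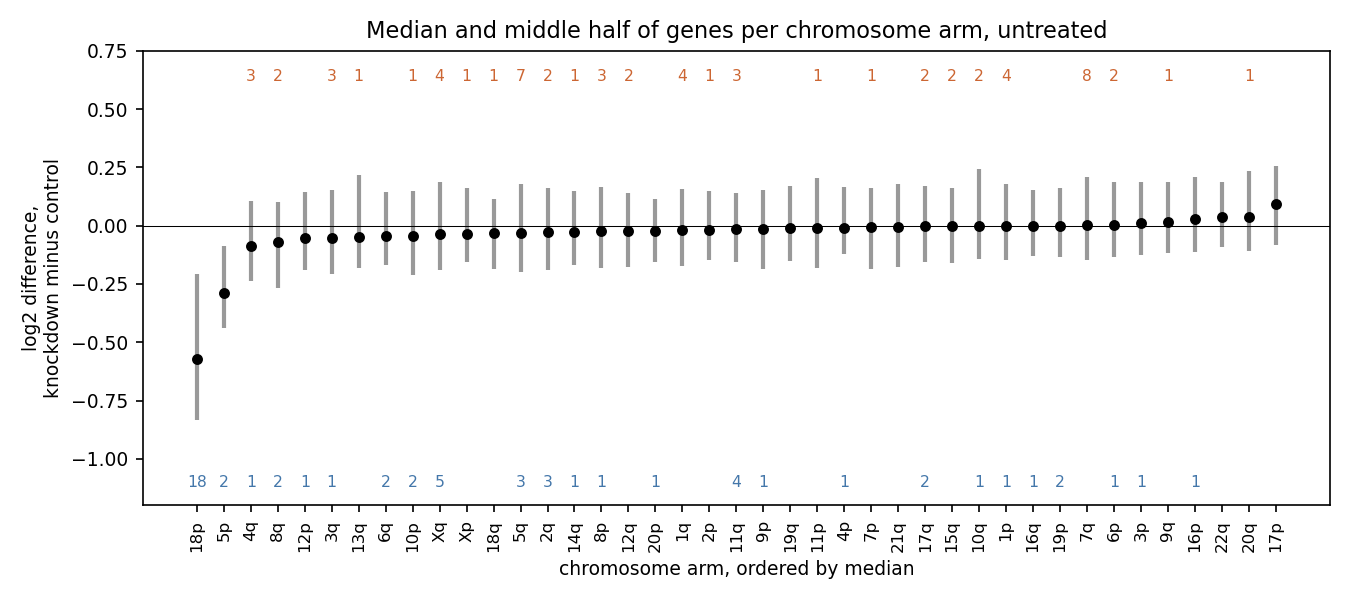
Median log2 difference between untreated knockdown and control cells per chromosome arm (points) and the middle 50% of genes (grey bars), with arms ordered by median. Blue numbers give the genes called lower and orange numbers those called higher on each arm, and 18p stands lowest at -0.57 with 18 lower genes.

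The called genes were then read in the DMSO and triptolide libraries. With DMSO, 129 genes (0.606%) were called between the lines, and 64 of 64 higher and 59 of 59 lower genes had the same direction there. Called the same way were 52 and 38, so the 90 shared genes were 73.2% of the untreated and 69.8% of the DMSO calls. With triptolide, 137 genes (0.644%) were called. The direction was the same for 61 of 64 higher and 57 of 59 lower genes, and 35 and 29 were called the same way, 52.0% of the untreated and 46.7% of the triptolide calls. In all 3 settings 31 higher and 26 lower genes were called. These libraries come from the same lines and enter the same fit. The share of all tested genes with the same direction in untreated and treated cells was not computed. These counts therefore describe the called genes only.

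Whether the line difference itself changed with treatment was tested with interaction terms. Between untreated and DMSO cells 0 genes (0%) were called by edgeR and 0 by DESeq2, with 512 at an unadjusted p under 0.05. Between untreated and triptolide cells 1 gene (0.0047%) was called by edgeR and 2 by DESeq2, with 651 at an unadjusted p under 0.05. That gene was CUBN, at 12.1, 34.3 and 17.3 CPM in control and 4.68, 6.22 and 2.68 CPM in knockdown libraries with triptolide. Its line difference was -2.13 ± 0.29 there against -5.69 ± 0.40 untreated, and the difference of the differences was -3.56 ± 0.51 (adjusted p = 0.0187). That call ended without the replicate block (adjusted p = 1), without replicate 2 (1) and without replicate 3 (0.270). COL6A3 was lower untreated and with DMSO (-2.83 ± 0.43) but stood at 0.17 ± 0.37 with triptolide, where the change of its line difference was not called (adjusted p = 0.94).

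**Figure D5:**
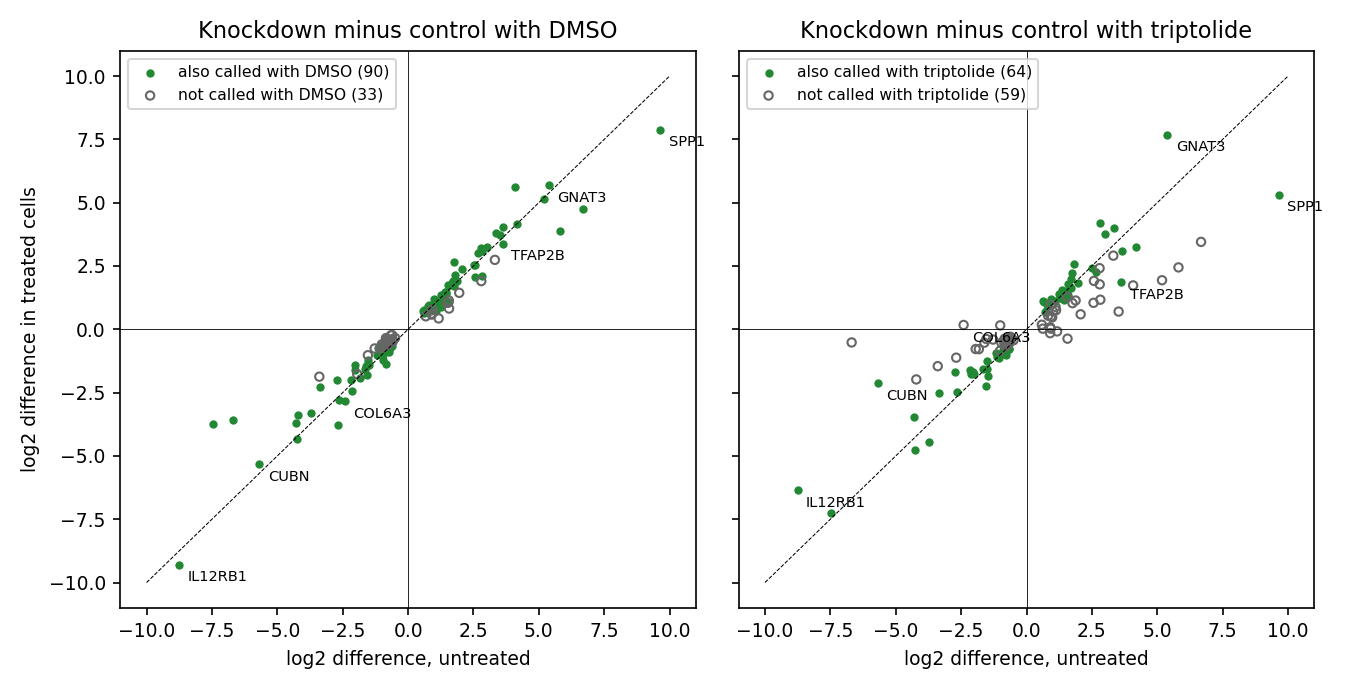
Log2 differences between the lines in untreated cells (horizontal axis) and with DMSO or triptolide (vertical axes) for the 123 genes called untreated. Filled green points were also called in the treated cells (90 with DMSO, 64 with triptolide), the dashed line marks equal differences, and CUBN lies above it with triptolide at -2.13.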

How the data were processed

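RNA-seq of 18 libraries was analysed, 6 of them untreated. The authors deposited raw counts per gene for each library, with no normalization. Per the submitters' processing notes, the tools were STAR 2.4.2a, HTSeq 0.6.1, DESeq2 1.4.5 and R 3.1 with the hg19 build, and whether strand was used in counting is not given in the sources used here. Tallies of reads outside genes or not assigned to one (24.9% to 30.5% of the reads tallied in the untreated libraries) were left out. Of 60252 gene IDs, 58822 (97.6%) matched GENCODE release 44 mapped to GRCh37. Counts in genes reached 26.7e6 to 35.7e6 per library, and the fold floors of 3 counts over a group cover counting error only.

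Counts were scaled by TMM and tested, two-sided, with edgeR 4.0.16 (R 4.3.3) in one fit of 18 libraries with group and replicate number (10 residual degrees of freedom), after its low-count filter by group. The knockdown was compared with the control in each treatment, with interactions between treatments. SE is the log2 difference divided by the square root of F. Levels (CPM) are counts per 1e6 after that scaling. The pairing was taken from the labels' numbers and checked on residuals from group means. Equal numbers in different groups gave r of 0.307 to 0.688 (45 pairs), unequal numbers -0.519 to 3.38e-05 (90 pairs), and 18 of 18 were closest to their own number. With residuals from group means, the negative values follow in part from the positive ones and are not a separate check. No library was a copy of another (lowest chi-square per degree of freedom 53.4). The labels call replicates biological without saying whether cultures were separate, so p-values measure the spread between these libraries. Residual SD was taken on log2(CPM + 1) over 10521 genes above 5 CPM.

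Named genes are ADAR, ADARB1 and ADARB2, and the 15 higher and 15 lower called genes with the largest difference. Those 30 have a mean of at least 1 CPM in the higher group and the same direction in all 3 pairs. The rule also took up to 4 members of each of 33 gene lists, those with the smallest p, but for many lists they are not named here. Other genes fall outside this rule, and not all are marked so where they are named. The comparison, lists and rule were chosen with earlier results of these data known. The fit was also run on counts simulated from its own estimates, with changes placed in genes of at least 1 CPM. That run cannot speak to genes at lower levels or to the choice of the replicate block. Alternatives were another scaling, scaling without mitochondrial genes, DESeq2 1.42.0, no filter, no block, fewer libraries and each library left out. RefSeq promoter windows were matched by symbol.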

Additional observations from a re-analysis of the deposited data

Results flagged for a closer look

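The difference between the lines in CUBN changed with triptolide. The log2 difference of differences, untreated minus triptolide, was -3.5634 (adjusted p = 0.0187 in edgeR's quasi-likelihood test), and it was the 1 gene called in that interaction. CUBN stood at 5.56, 26.1 and 9.30 CPM in untreated control and 12.1, 34.3 and 17.3 CPM in triptolide control libraries, and at 0.141, 0.282 and 0.269 CPM in untreated knockdown and 4.68, 6.22 and 2.68 CPM in triptolide knockdown libraries. The call ended without the replicate block (adjusted p = 1), without replicate 2 (1) or 3 (0.270), and without any one of 6 libraries: control untreated 2 (0.0775) or 3 (0.0517), knockdown untreated 1 (0.0967) or 2 (0.468), and control triptolide 1 (0.0834) or 2 (0.0716). Over the fits that left out 1 library each, the difference stayed between -3.92 and -3.05.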

How the results depend on the processing

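The 123 untreated calls (64 higher, 59 lower) became 21 (6 and 15) without the replicate block, 217 (119 and 98) with DESeq2, 380 (262 and 118) without the low-count filter and 63 (33 and 30) with the 6 untreated libraries alone. With the 12 untreated and DMSO libraries the higher calls were 97. Another size factor or scaling without mitochondrial genes left 123. Leaving out libraries or replicate numbers gave 48 (without replicate 1) to 111 calls, 24 to 66 higher and 21 to 50 lower. Without replicate 3 there were 56. The DMSO calls (129) became 20 without the block, 241 with DESeq2 and 341 without the filter, and 42 to 84 with libraries or numbers left out. The triptolide calls (137) became 14, 272 and 248, and 34 to 105. For the interaction of untreated with DMSO 57 genes were called without the filter, and for that with triptolide 0 without the block, 2 with DESeq2, 36 without the filter and 0 to 1 with libraries left out. ADAR passed at -0.67 without the filter (adjusted p = 0.000183) and at -0.65 with 12 libraries (0.0281), and ranged from -0.86 to -0.52 with libraries or numbers left out. Of the 30 genes with the largest differences, 13 lost their call without the block, 10 without replicate 1, 2 without replicate 2 and 8 without replicate 3. None changed direction in any fit that tested it. With the 6 untreated libraries alone 29 of the 30 were tested, all but SPP1. The causes were not tested. Depth limits genes with 0 counts in a group, whose fold is a bound.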

Other observations

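Several gene families around called genes were looked at after the calls were seen, so their values are given without a test of the family. In nitric oxide and cyclic GMP signalling, 3 of 9 tested genes were called higher, beside 0.301% over all genes, with a median of 0.11 and 4 of 9 negative. Beside GUCY1A1, they were PRKG1, a cyclic GMP dependent protein kinase, at 0.0261, 0.0336 and 0.0277 CPM in control and 0.282, 0.740 and 0.209 CPM in knockdown libraries (3.52 ± 0.79, adjusted p = 0.045 in edgeR), and IRAG1, a substrate of that kinase, at 0.365, 1.14 and 0.553 against 2.26, 3.77 and 1.17 CPM (1.74 ± 0.36, adjusted p = 0.0217). The groups did not overlap in either gene. CSTF2T, also called higher, lies within the span of PRKG1, and whether the counting used strand is not stated. Reads of CSTF2T and PRKG1 may therefore not be separable. The PRKG1 call ended without any one untreated library (adjusted p up to 0.282), and that of IRAG1 without control replicate 1 (0.162) or knockdown replicate 2 (0.143). PRKG1 was not called with triptolide, where its difference was 0.70, and IRAG1 was (2.24, adjusted p = 0.00771). PDE5A, which breaks down cyclic GMP, was not called (0.11 ± 0.23), nor were IRAG2 (-1.77 ± 0.86) and GUCY1A2 (-0.32 ± 0.22), and GUCY1B1, the partner subunit of GUCY1A1, had 0 counts in the 6 libraries. Without the replicate block the adjusted p was 0.367 for PRKG1 and 0.806 for IRAG1. The call of PRKG1 ended with any 1 of the 6 libraries left out (adjusted p = 0.0869 to 0.282), and that of IRAG1 without any 1 replicate number (0.0966 to 0.305).

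Among the SLC1 transporters, SLC1A1, a glutamate carrier like SLC1A3, was also called lower, at 2.90, 5.14 and 2.77 against 1.35, 3.49 and 1.05 CPM (-1.01 ± 0.23, adjusted p = 0.045), and its call ended without any of 5 libraries (adjusted p up to 0.310). SLC1A2 (-1.03 ± 0.31, adjusted p = 0.22) and SLC1A5 (-0.28 ± 0.19) were not called. Of the ERBB receptors, ERBB4 was called higher, at 0, 0.202 and 0.0277 against 0.310, 0.951 and 0.867 CPM (3.32 ± 0.75, adjusted p = 0.0474), a call that ended without any of 5 libraries (adjusted p up to 0.372), while ERBB2 (0.24 ± 0.12) and ERBB3 (-0.05 ± 0.11) were not called. Beside osteopontin, the other matrix phosphoproteins of its family, IBSP, DMP1, DSPP and MEPE, were too low to be tested.

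Among called neighbours were IFI44L with IFI44 on 1p (higher), CD36 with GNAT3 on 7q (higher), PRKG1 with CSTF2T on 10q (higher), ENSG00000237640 with AZGP1 and ZNF775-AS1 with AOC1 on 7q (higher), CLU with SCARA3 on 8p (higher), SLC25A48 with CXCL14 on 5q (higher), TENM1 with TEX13C on Xq (higher), and OSGIN2 with TMEM64 on 8q (lower), each within 1000000 bases of one another.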
